A study of Brassica rapa with 5 samples.

Results

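Leaves of Brassica rapa plants exposed to Cd were compared with leaves of plants kept at normal metal supply. The comparison uses 2 of the 5 deposited tables of the series, those titled for Cd exposure and for the normal condition, and covers 10284 genes with a mean of at least 5 TPM (tags per 1000000 clean tags) over both. Plants of accession R-o-18 grew in hydroponics for 14 days in a nutrient solution free of Cd (2 µM Zn and 3 µM Fe). They then stayed in that solution (normal supply) or were moved to 1 µM Cd (Cd exposure) for 7 days, after which the first pair of expanded leaves was taken. Per the labels' protocols, each condition had 3 replicates, each of 3 plants, and each deposited table is the mean of 3 digital gene expression libraries, in which short tags are counted per gene. The other conditions, Fe deficiency (0.05 µM Fe), Zn deficiency (0.005 µM Zn) and Zn excess (50 µM Zn), appear below as levels set beside those of the members. They also entered the estimate of the spread between libraries and the choice of genes with whole tags.

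Cd is a metal with no known nutritional role in land plants. It enters roots largely through transporters that also carry Fe, Zn and other divalent metals, and part of it moves to the shoot. Inside cells it binds thiol groups, and plants bind it in turn with glutathione, phytochelatins and metallothioneins and store it in vacuoles. In leaves, Cd is known to interfere with photosynthesis and with the handling of essential metals. The gene identifiers in the tables could not be tied to these pathways, because the available reference names only 1 identifier of this form, SWEET9, and that one is listed in none of the 5 tables. Genes are therefore given by identifier and by what was measured.

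The deposited tables hold more than 1 number per condition. The tag mean and the TPM weight the 3 libraries differently, which gave the clean-tag total of each library to the tag. The normal-supply libraries held 5637738, 5900931 and 5947524 clean tags, and the Cd libraries 5691068, 5764028 and 5833684; libraries are numbered 1 to 3 below in this order, which carries no other meaning. For genes under 10 TPM whose tags were all whole, the tags of each library could then be solved: at 5 to 10 TPM a single solution existed for 99.5% of such genes under normal supply and for 73.6% under Cd exposure. With totals shifted on purpose, the shares were 23.7% under normal supply and 69.3% under Cd exposure. For Cd exposure at this level, a single solution is therefore no check of the totals. Of the clean tags, 57.2% lay in genes under normal supply and 54.0% under Cd exposure.

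The solved genes show every library separately. Among 6874 of them with a mean of at least 5 tags, 5 rose and 4 fell under Cd exposure (edgeR quasi-likelihood test, Benjamini-Hochberg adjusted p under 0.05), which is 0.0727% and 0.0582% of the genes tested. In all 9, the 3 Cd libraries lay on one side of the 3 normal-supply libraries. The same held for 386 genes above and 826 below, 5.62% and 12% of the 6874. Nothing is read from the balance of these counts: genes high under Cd exposure were solved less often, and levels were scaled to clean-tag totals, of which fewer lay in genes under Cd exposure. Without adjustment, edgeR counted 875 genes at p under 0.05.

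The 5 rises include genes close to silent under normal supply. Bra001052 had 0, 0 and 0 tags in the normal-supply libraries and 12, 10 and 11 in the Cd libraries. Its Cd level, taken as exact, was 11.1 times a floor of 3 tags over the normal-supply libraries (edgeR adjusted p 0.0187). The gene was absent from the table of Zn deficiency and stood at 0.118 and 0.115 TPM under Fe deficiency and Zn excess. Cd exposure was thus the only table in which it passed 1 TPM. Bra001421 had 0, 2 and 0 tags under normal supply and 15, 20 and 19 under Cd exposure. The ratio of the summed tags, adjusted for clean-tag totals, was 27.3, with an exact 95% interval for counting error of 7.20 to 231 (edgeR adjusted p 0.0138). The lowest Cd library held several times the tags of the highest normal-supply library.

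Bra028590 had 4, 6 and 6 tags under normal supply and 28, 31 and 38 under Cd exposure. It was 6.15-fold higher as a TPM ratio, 5.60 against 0.912 TPM (edgeR log2 change 2.59, adjusted p 0.0113). Its level was 0.805 TPM under Fe deficiency, 0.975 under Zn deficiency and 0.286 under Zn excess, so these tables all lay near or under normal supply. Bra026257 had 6, 10 and 3 tags under normal supply and 27, 51 and 35 under Cd exposure, 6.0-fold higher (edgeR log2 change 2.56, adjusted p 0.0182). Bra036464 had 12, 15 and 10 tags against 44, 45 and 45, 3.66-fold higher (edgeR log2 change 1.86, adjusted p 0.0182). The Cd libraries of Bra036464 were nearly equal, at 7.73, 7.81 and 7.71 TPM.

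The 4 falls include 1 gene with no tag left under Cd exposure. Bra012938 had 26, 11 and 15 tags under normal supply and 0, 0 and 0 under Cd exposure. Its normal-supply level, taken as exact, was 17.3 times a floor of 3 tags over the Cd libraries (edgeR adjusted p 0.0113). The other treatments kept the gene at 4.02 TPM (Fe deficiency), 5.005 TPM (Zn deficiency) and 1.78 TPM (Zn excess). Bra007149 had 46, 32 and 42 tags under normal supply and 0, 0 and 9 under Cd exposure (edgeR log2 change -3.67, adjusted p 0.0182). All of its Cd tags came from library 3. It was absent from the tables of Fe deficiency and Zn excess and stood at 8.99 TPM under Zn deficiency.

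Bra032433 had 35, 27 and 42 tags under normal supply and 7, 7 and 9 under Cd exposure, 4.48-fold lower (edgeR log2 change -2.14, adjusted p 0.0182). The other treatments had 5.15 to 5.97 TPM of it, close to the 5.95 TPM of normal supply. Bra010178 had 48, 69 and 34 tags under normal supply and 14, 14 and 16 under Cd exposure, 3.40-fold lower (edgeR log2 change -1.76, adjusted p 0.0465). With TMM factors its edgeR adjusted p was 0.0665, and it passed in 0 of the 6 fits that left out 1 library. It is the only one of the 9 with a mean of at least 5 TPM over both tables. None of the 9 passed in all 6 fits that left out 1 library. Without normal-supply library 1 or 3 edgeR called 0 rises and 0 falls, and without normal-supply library 2 it called 5 and 7. Without Cd library 1, 2 or 3 it called 3 and 2, 3 and 4, and 0 and 1.

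**Figure D1:**
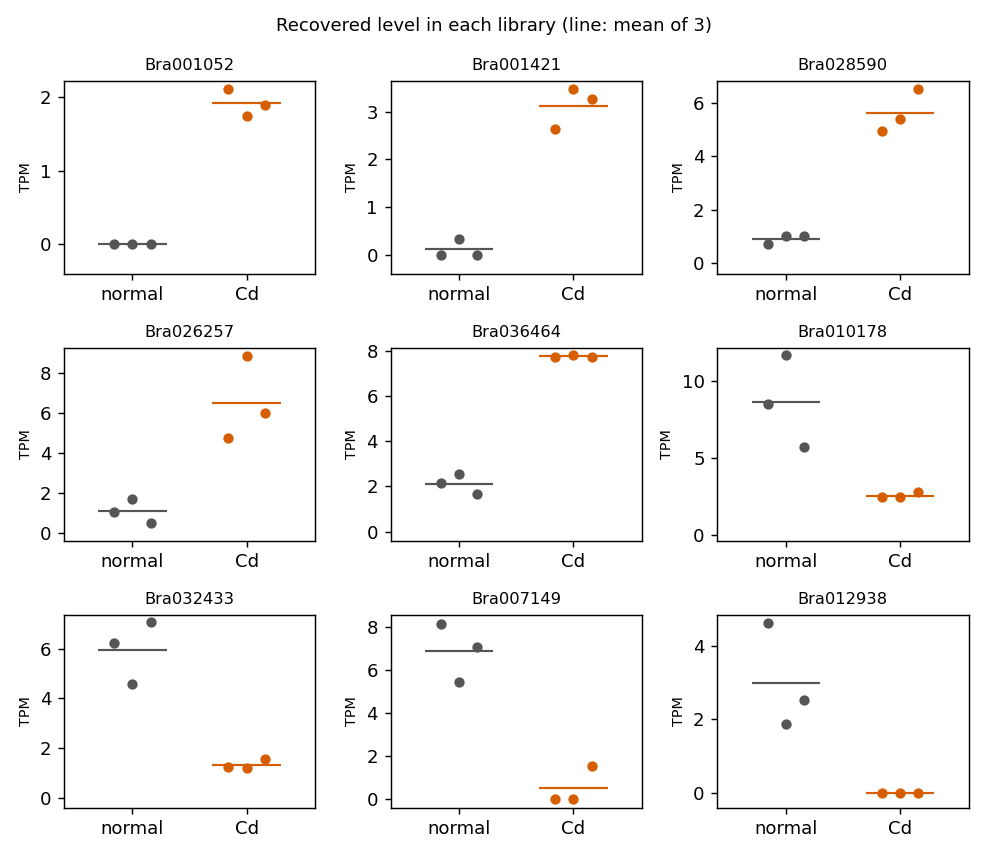
Level in each library of the 9 genes called by edgeR in the recovered tags, in TPM (vertical axis), with normal supply in grey, Cd exposure in orange and a line at the mean of 3 libraries. The points of both conditions are separate in each panel, and Bra012938 lies at 0 in all 3 Cd libraries.

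The 6 libraries also separated by condition over all 6874 solved genes. On the first principal component, 32.4% of the variance, the normal-supply libraries stood at 24.2, 29.3 and 8.15 and the Cd libraries at -23.3, -21.6 and -16.8. The second component, 24.9% of the variance, lay within Cd exposure, with library 1 at 31.4 and library 2 at -34.0. The median gene of Cd library 1 lay 0.136 below the mean of the Cd libraries on the log2 scale, and that of library 2 lay 0.147 above.

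At 5 TPM and above, single libraries can mostly not be solved, and changes were taken between the table means as log2(TPM + 1). Falls outnumbered rises by size. Of the 10284 genes, 34 (0.331%) were 2-fold or more higher under Cd exposure and 260 (2.53%) were 2-fold or more lower. The median gene moved by -0.05 on the log2 scale, or by 0.027 when scaled per tag in genes. By size, that scaling gave 60 higher and 203 lower genes. The gene just inside the 5 TPM minimum stood at 4.80 TPM under Cd exposure and 5.20 under normal supply, the one just outside at 4.68 and 5.31. Of 1130 genes with a mean of 4 to 5 TPM, 29 were 2-fold lower and 1 was higher, and of 999 genes at 5 to 6 TPM, 15 were lower and 4 higher.

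A test used the spread between libraries that the 2 deposited columns imply, averaged over the 5 conditions and moderated across genes with limma. For Cd exposure the implied spread is in effect library 1 against library 3, since library 2 carries 1.53% of the largest weight. Past an adjusted p of 0.05 there were 340 rises (3.31%) and 723 falls (7.03%) by this test. The balance depended on scaling. Counted per tag in genes 518 rose and 514 fell, and with median-of-ratios size factors 430 rose and 555 fell. In solved genes at 5 to 10 TPM, the implied spread was 0.793 of that between the solved libraries under Cd exposure and 0.924 under normal supply. The coefficient of variation between solved libraries at 2.5 to 5 TPM was 34.8% under Cd exposure and 32.3% under normal supply, against 22.3% and 22.2% from counting alone. Widening the spread of every gene, at every level, by the ratios from 5 to 10 TPM left 83 rises (0.807%) and 239 falls (2.32%) in limma, and 30 of the 34 higher and 155 of the 260 lower genes were among them. Of 1505 genes that both tests covered, the unwidened test called 54, the widened one 9 and edgeR 1, so adjusted p-values from the widened spread are given first below.

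**Figure D2:**
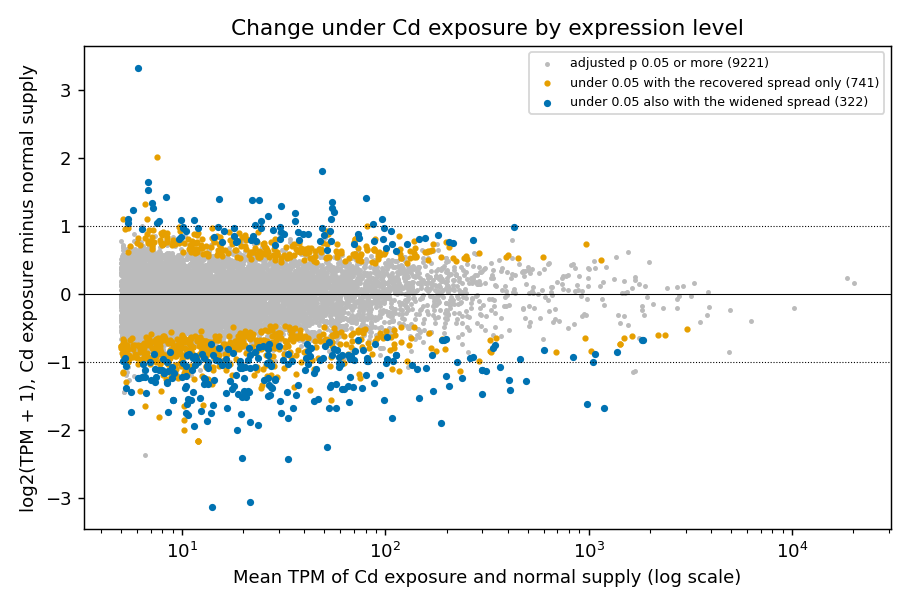
Change of each of the 10284 genes, log2(TPM + 1) under Cd exposure minus normal supply (vertical axis), against the mean TPM of both tables (horizontal log axis), with dotted lines at 2-fold. Blue points pass limma also with the widened spread (322 genes), orange points only with the recovered spread (741), and blue points are more frequent below 0.

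The share of genes that fell in the widened test was larger in each higher class of level. It was 36 of 3596 genes at 5 to 10 TPM (1.0%), 97 of 4033 at 10 to 30 TPM (2.41%), 63 of 1929 at 30 to 100 TPM (3.27%), 37 of 659 at 100 to 1000 TPM (5.62%) and 6 of 67 at 1000 TPM or more (8.96%). The median SE of a change fell from 0.21 in the first class to 0.15 in the last, so smaller changes could pass at high levels. By size alone there was no such steady order, and the shares of 2-fold lower genes were 1.95%, 2.85%, 2.44%, 3.79% and 4.48%. No gene with a mean of 100 TPM or more was 2-fold higher.

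**Figure D3:**
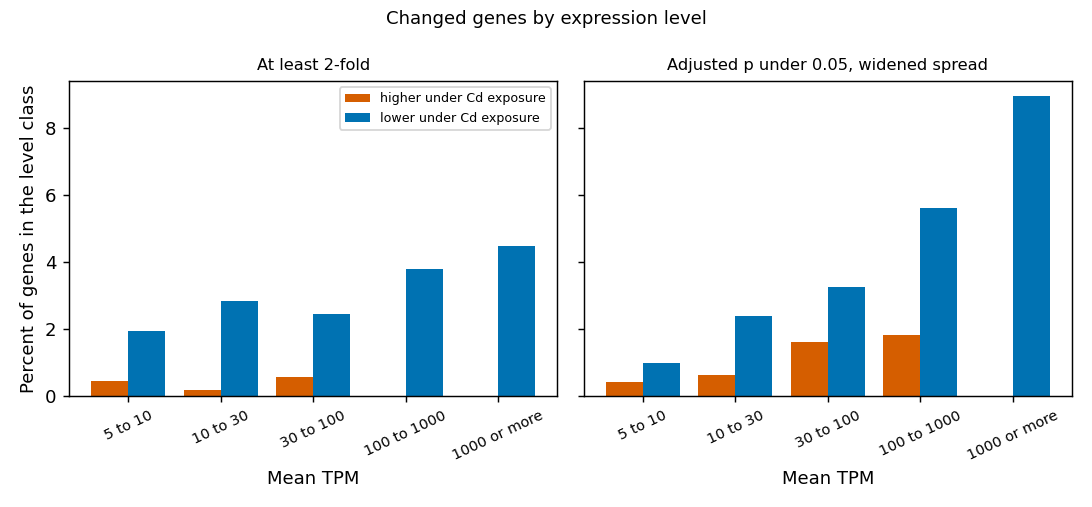
Percent of genes in each class of mean TPM (horizontal axis) that were higher (orange) or lower (blue) under Cd exposure, at least 2-fold on the left and past the widened limma test on the right. Lower genes exceed higher ones in each class of both panels, from 1.95% to 4.48% on the left and from 1.0% to 8.96% on the right.

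Several of the most abundant transcripts of the leaf fell. Bra002999 stood at 1818 TPM under normal supply and 568 under Cd exposure, 3.20-fold lower (log2 change -1.68, SE 0.15, limma adjusted p 0.0040 widened and 0.000726 unwidened). Bra013183 stood at 1487 and 484 TPM, 3.07-fold lower (log2 change -1.62, SE 0.18, limma adjusted p 0.0079 and 0.0015). Both had fractional tags, which may be shared with a similar gene, as had Bra010807 below. Bra002999 and Bra013183 were also low under Fe deficiency, at 693 and 680 TPM, and stood at 2613 and 3353 TPM under Zn deficiency. Bra026099 fell from 1401 to 700.5 TPM (log2 change -0.999, limma adjusted p 0.028), Bra010807 from 1383 to 752 TPM (-0.88, limma adjusted p 0.019) and Bra018955 from 1090 to 575 TPM (-0.92, limma adjusted p 0.021). Each of these 5 was still lower when normal-supply library 1 was left out, by 0.91 to 1.61 on the log2 scale.

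The 5 genes with the highest level under normal supply did not pass the test. Bra028174 was at 18973 TPM under normal supply and 21266 under Cd exposure, and Bra028175 at 17238 and 20196. Bra036240 was at 10898 and 9440 TPM, Bra025431 at 7145 and 5399, and Bra022976 at 6303 and 3470. Bra028175, Bra025431 and Bra022976 had fractional tags. Bra022976 had the largest log2 change of the 5, -0.86, with an SE of 0.32 and a limma adjusted p of 0.221 widened and 0.108 unwidened. Among genes at 1000 TPM or more in either table, 2 passed as higher only with the unwidened spread: Bra004275 (fractional tags, 733 and 1214 TPM, limma adjusted p 0.0375) and Bra013018 (947 and 1339 TPM, limma adjusted p 0.0313). With the widened spread their limma adjusted p was 0.104 and 0.0899, and without normal-supply library 1 the unwidened one was 0.0955 and 0.0603. The fit without library 1 leaves normal supply with fewer libraries, which raises the SE of every gene. The log2 change of Bra013018 was larger in that fit, 0.53 in place of 0.50.

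The lower sum of TPM in genes was the balance of larger losses and gains. Losses summed to -80703 TPM and gains to 49127 TPM, a net difference of -31577. The differences of the 260 genes at least 2-fold lower summed to -13628 TPM and those of the 34 higher genes to 752. Most of the summed losses thus lay outside the 260. The 67 genes at 1000 TPM or more on average had a net difference of -16564 TPM, and 3 of them are among the 260. The share of gene tags in the 10 most abundant genes was 14.4% under normal supply and 14.5% under Cd exposure.

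Of the 12 largest rises past the test, Cd exposure was the highest of the 5 tables for 11, and for 32 of all 34 genes that were 2-fold higher. These genes were chosen for a high level under Cd exposure, so the order is a description. Bra005940 had the largest rise, with 2, 3 and 0 tags in the normal-supply libraries. Its 204 Cd tags have 10 possible divisions, which put 63 to 119 in library 1, 20 to 136 in library 2 and 5 to 65 in library 3. Every Cd library therefore lay above every normal-supply library. Between the means it was 41.2-fold higher, at 11.8 TPM against 0.288 (log2 change 3.32, SE 0.29, limma adjusted p 0.0091 widened and 0.0019 unwidened), and stood at 0.118 to 0.989 TPM in the other treatments.

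Bra018433 had 6, 23 and 13 tags under normal supply. Under Cd exposure 107 to 151 of its 220 tags lay in library 3, against 12 to 53 in library 1. It was 5.31-fold higher (12.7 against 2.38 TPM), and its limma adjusted p was 0.0639 widened, 0.0209 unwidened and 0.0795 unwidened without normal-supply library 1. Bra037419 had 20, 14 and 19 tags under normal supply and 184 over the Cd libraries, 3.50-fold higher (limma adjusted p 0.0343 widened). Its possible divisions put 5 to 74, 8 to 151 and 28 to 102 tags in the Cd libraries, so an overlap of the groups is possible. It was lower in the other treatments than under normal supply, at 1.56, 0.994 and 1.32 TPM. Bra016353, with fractional tags, rose from 2.79 to 10.8 TPM (log2 change 1.64, limma adjusted p 0.0177 widened) and stood at 2.88 to 3.52 TPM in the other treatments.

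At higher levels, Bra002034 rose 2.59-fold, to 78.7 TPM from 30.4 (log2 change 1.34, SE 0.16, limma adjusted p 0.0091 widened). Bra006629 rose from 11.8 to 32.2 TPM (log2 change 1.37, limma adjusted p 0.0191 widened) and was at 6.27 to 7.12 TPM in the other treatments, below its level under normal supply. Bra005865 rose from 12.9 to 35.1 TPM (log2 change 1.38, limma adjusted p 0.0209 widened) and was at 11.7 to 15.0 TPM elsewhere. The possible divisions of Bra006629 put 11 to 215 tags in Cd library 1, against 56 to 61 in normal-supply library 1. For Bra005865 they put 9 to 255 and 44 to 49 tags there. An overlap of the groups is thus possible for both genes. Bra029046, with fractional tags, rose from 7.87 to 22.4 TPM (log2 change 1.40, limma adjusted p 0.0154 widened). Bra035742 was the exception in order, at 117 TPM under Cd exposure and 118 under Fe deficiency, against 43.5 under normal supply and 7.97 and 11.7 under Zn deficiency and Zn excess (log2 change 1.41 under Cd exposure, limma adjusted p 0.0080 widened).

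Of the remaining 3, Bra034674, with fractional tags, rose 3.59-fold (limma adjusted p 0.0154 widened) and stood at 1.41 and 2.28 TPM under Fe deficiency and Zn excess, far below the 21.3 TPM of normal supply. Bra010626, with fractional tags, rose from 3.60 to 10.6 TPM (limma adjusted p 0.0284 widened). Bra009188 had 18, 26 and 28 tags under normal supply and 219 over the Cd libraries (3.08-fold, limma adjusted p 0.0439 widened). Without normal-supply library 1 its unwidened limma adjusted p was 0.0509. The possible divisions put 12 to 81, 9 to 152 and 55 to 129 tags in its Cd libraries, so the tables do not show whether all of them exceeded normal supply.

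The 15 largest falls had their lowest level of the 5 tables under Cd exposure, as did 253 of the 260 genes that were 2-fold lower. Both sets were chosen for a low level under Cd exposure, so here too the order is a description. Many of the largest falls rested in part on normal-supply library 1. Bra021110 had 323 to 326 tags in that library, 2 to 23 in library 2 and at most 119 in library 3, and 1, 31 and 4 tags in the Cd libraries. The groups overlapped in every possible division, since library 2 of normal supply reached at most 23 tags and library 2 of Cd exposure held 31. It was 12.5-fold lower between the means (log2 change -3.14, limma adjusted p 0.0430 widened). With library 1 left out, the normal-supply level was 11.0 TPM in place of 26.1 and the log2 change -1.96 (limma adjusted p 0.109 unwidened).

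Bra019002, Bra027243 and Bra009620, all with fractional tags, had 65.0%, 64.9% and 57.6% of their normal-supply level in library 1. Their log2 changes were -3.05, -2.40 and -2.25, and without library 1 they were -2.15, -1.51 and -1.60. In that fit, which has a larger SE, Bra019002 kept its call (limma adjusted p 0.0485 unwidened) and Bra027243 and Bra009620 lost theirs (0.114 and 0.0502). For Bra010502, Bra011656 and Bra017744, which had identical levels in both tables (20.3 and 3.77 TPM) and so may be counts of the same tags, it was -2.16 and -1.39. These 3 missed the widened limma test, with an adjusted p of 0.0532, 0.0530 and 0.0530, and the unwidened one without library 1 (0.124, 0.123 and 0.123). Bra014175, with fractional tags, also missed the widened limma test, with an adjusted p of 0.0824 (17.0 and 3.50 TPM). It had 59.1% of its normal-supply level in library 1, and without that library its log2 change was -1.34 (limma adjusted p 0.162 unwidened).

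Other falls depended less on that library, though some were still smaller without it. Bra011636 was 5.81-fold lower, at 9.72 TPM against 56.5 (log2 change -2.42, SE 0.21, limma adjusted p 0.0040 widened), and its log2 change without library 1 was -2.29. It stood at 160.4 and 151 TPM under Fe and Zn deficiency and 38.0 under Zn excess. Its possible divisions put 3 to 468 tags in normal-supply library 3. The Cd libraries held 27 to 54, 62 to 118 and 23 to 52, so an overlap is possible. Bra010706, with fractional tags, fell from 34.5 to 8.67 TPM (log2 change -1.88, limma adjusted p 0.0075 widened), or by 1.82 on the log2 scale without the library. Bra003396 was 3.78-fold lower, at 78.4 TPM against 296 (log2 change -1.90, limma adjusted p 0.0075 widened), and its change without library 1 was larger, -2.02. It was near 100 TPM under Fe deficiency and Zn excess too (101.6 and 100.2 TPM) and at 505 TPM under Zn deficiency.

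Bra009768 had 61, 56 and 42 tags in the Cd libraries and 658 over the normal-supply libraries. Its possible divisions put 242 to 295, 9 to 378 and 38 to 354 in the latter, so an overlap of the groups is possible. The gene was 4.10-fold lower (limma adjusted p 0.0122 widened) and stood at 86.0 TPM under Zn deficiency and 93.6 under Zn excess. Bra007494 had 29, 62 and 28 tags in the Cd libraries and 243 to 270, 97 to 285 and 2 to 163 under normal supply (4.44-fold lower, limma adjusted p 0.0191 widened). An overlap is possible for it too. Its other levels, 27.2 to 35.9 TPM, lay around the 30.6 TPM of normal supply. Bra020332 had 168 to 173, 98 to 133 and at least 71 tags in the normal-supply libraries and 89 tags over all Cd libraries (4.17-fold lower, limma adjusted p 0.0195 widened). Bra032085, with fractional tags, fell 4.52-fold (limma adjusted p 0.0209 widened).

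**Figure D4:**
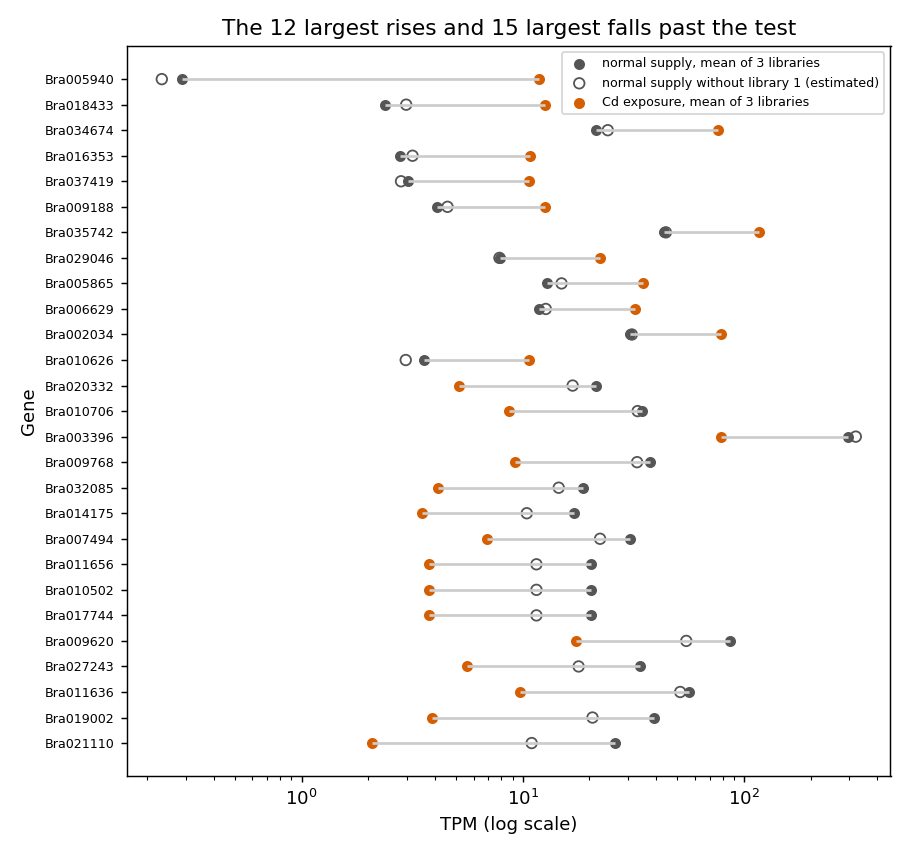
TPM (horizontal log axis) of the 12 genes with the largest rises and the 15 with the largest falls past the unwidened limma test, under normal supply (grey), under Cd exposure (orange) and under normal supply with library 1 left out (open). The open points lie closer to the orange ones than the grey ones do for Bra021110, where normal supply drops from 26.1 to 11.0 TPM, and for several other falls.

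Over all 10284 genes, normal-supply library 1 lay a median of 1.34% below the weighted mean of the other normal-supply libraries (a difference of -1.34%). Over the 260 lower genes it lay 27.3% above, and in 80 of them (30.8%) it lay over 50% above, against 331 of all genes (3.22%). The normal-supply level entered the choice of the 260 genes, so part of this follows from the choice. Of the 260, 178 were still 2-fold lower without that library, and 132 also passed the widened limma test. Of the 34 higher genes, 29 were still 2-fold higher without it, and 25 also passed. Other genes entered: over all 10284 genes, 216 were 2-fold lower and 45 were 2-fold higher without that library. In bulk leaf tissue, fewer cells of a type and less RNA per cell cannot be told apart.

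**Figure D5:**
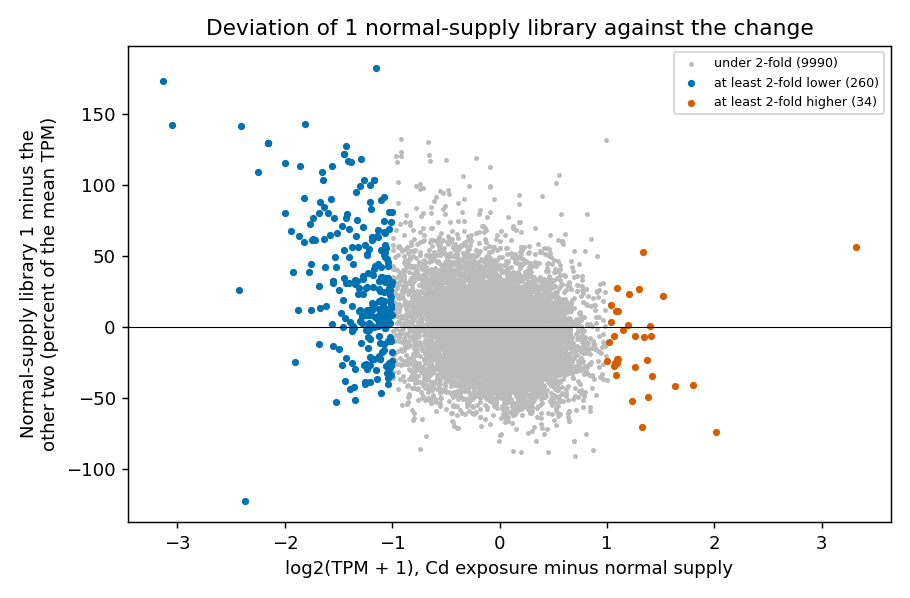
Deviation of normal-supply library 1 from the weighted mean of the other normal-supply libraries, in percent of the mean TPM (vertical axis), against the log2 change under Cd exposure (horizontal axis), with 1 point per gene. The 260 lower genes (blue) spread mostly above 0 with a median of 27.3%, and the 34 higher genes (orange) around a median of -8.86%.

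The choice of the lower and higher genes, and the filter on the mean of both tables, set in part their level under normal supply. The 34 higher genes had a median of 7.44 TPM under normal supply and 19.2 under Cd exposure, which the choice fixes, and 7.54, 6.66 and 7.82 TPM under Fe deficiency, Zn deficiency and Zn excess. Their medians in the other treatments thus lay near normal supply. The 260 lower genes had a median of 23.1 TPM under normal supply and 8.43 under Cd exposure, and of 29.98, 35.1 and 22.004 TPM in the other treatments. Over all genes the medians were 14.6 and 13.8 TPM, and 16.7, 15.0 and 15.3 in the other treatments. Of the 260 lower genes 52.7% had fractional tags in some table, of the 34 higher genes 29.4%, and of all genes 48.3%.

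Tags in only 1 of the tables were found for 1643 genes under normal supply and 1251 under Cd exposure. The highest level among them was 3.00 TPM under normal supply (Bra012938) and 1.91 TPM under Cd exposure (Bra001052). A count of 0 allows up to 0.172 TPM under normal supply and 0.174 TPM under Cd exposure (3 tags over the 3 libraries, counting error only).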

How the data were processed

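Digital gene expression tables of leaves were used as deposited. Per the file headers, each has a column of clean tags and a column of TPM per gene. The deposited clean-tag column holds estimated counts, means of 3 libraries per condition. The authors scaled TPM per 1000000 clean tags. How tags were mapped, and to which build and annotation, is not given in the sources used here. Genes that a table does not list were set to 0.

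The 3 library totals of each table were found from genes with 1 tag in 1 library and refined to whole tags. For normal supply 9744 of 9747 genes matched them to the printed digits, and for Cd exposure 8559 of 8562. Tags per library were solved for genes under 10 TPM with whole tag sums in all 5 tables (within 0.0003 tag plus 0.000002 of the sum), where both columns allowed 1 solution. These whole tags were tested with edgeR 4.0.16 (clean-tag totals as library sizes, mean of at least 5 tags). It was chosen after the tables were seen. Elsewhere, the difference between the columns gave, for each gene and condition, 1 value of the spread among libraries. It was scaled by its trend on level, averaged over the 5 conditions, moderated with limma 3.58.1 under R 4.3.3, which left 12.0 degrees of freedom, and used on log2(TPM + 1), which understates changes of low genes. Widening multiplied the SD by 1.26 (Cd exposure) and 1.08 (normal supply). The level without normal-supply library 1 was estimated from the same difference, which takes the weighted mean of the other libraries as their mean. In 1665 solved genes it missed by -3.67% to 2.44% of the mean (central 95%). Both were also chosen after seeing the data. TMM factors and DESeq2 1.42.0 were alternatives. The scripts were run on simulated whole tags, which did not cover fractional tags, and no result rests on that outcome. Nothing in the labels says that replicates were independent cultures beyond separate plants, so p-values measure the spread between these libraries.

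Named genes were the 12 largest rises and 15 largest falls past the limma test, the 5 most abundant genes, and genes at 1000 TPM or more past the test (up to 5 each way). No gene at 0 in 1 table reached 5 TPM in the other. The 9 genes of the edgeR test were named after their values were seen. The comparison and the lists were chosen with earlier results of these data known. Lists by gene name could not be applied.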

Additional observations from a re-analysis of the deposited data

How the results depend on the processing

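The counts by size moved with the settings. For genes 2-fold higher and lower (34 and 260), a pseudocount of 0.1 gave 58 higher, a pseudocount of 5 gave 15 and 128, no filter gave 61 and 402, a minimum mean of 20 TPM gave 16 and 111, and a 4-fold threshold gave 2 and 10. Scaling per tag in genes gave 60 higher, and genes without fractional tags gave 123 lower. For genes past limma's adjusted p (340 rises, 723 falls), the widened spread gave 83 and 239, the addition of 2-fold gave 34 and 235, genes without fractional tags gave 163 and 296, scaling per tag in genes gave 518 rises, the spread of both conditions alone gave 204 rises, and a minimum mean of 20 TPM gave 401 falls. Smaller gene sets account for part of the moves under the filters; otherwise the cause was not tested. In the recovered tags, a minimum mean of 10 tags gave 3 rises with edgeR, TMM factors gave 5 rises and 3 falls, DESeq2 gave 5 and 5, and leaving out 1 library gave 0 to 5 rises and 0 to 7 falls. The log2 changes of the 39 genes named by rule kept their direction under 7 settings, except that Bra028174 was at -0.0034 without normal-supply library 1. Widening does not alter a change and a pseudocount cannot reverse one, so those settings were no check of direction. Of the 39, the 5 most abundant genes missed the main test and had no call to lose. Of the rest, 7 lost the test with the widened spread and 11 without normal-supply library 1. Leaving out that library raises the SE of every gene, so a lost call need not mean that the change rested on it. Depth limits genes under about 5 TPM, where counting error is large. No paired analysis was possible because the libraries carry no replicate numbers.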
